A study of Mus musculus with 4 samples.

Results

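The enzymes of de novo purine synthesis were followed on one-color Agilent arrays of mouse pancreatic islet cells given MOTS-c, a peptide encoded in the mitochondrial genome, or a scrambled control peptide. The 10 genes, Ppat, Gart, Pfas, Paics, Adsl, Atic, Adss, Impdh1, Impdh2 and Gmps, were listed because MOTS-c has been reported to act on this pathway, and they were chosen with their MOTS-c and scrambled values already known. The difference between these groups is therefore given for them as a description, with no test. They are 10 of 22911 genes on the array that carry a RefSeq symbol, of which 15470 had a probe that passed the filter on dim probes. For the 10 genes 14 probes were followed, of which 13 were found because RefSeq transcripts name them. Other probes without a RefSeq name were not searched for these genes. The remaining probe, A_66_P123547, is named by the Ensembl transcript ENSMUST00000161808 and was taken as Adss because the study lists it under that gene.

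The donors were 4 C57BL/6 mice of 1 litter, aged 60 weeks. Islets were picked by hand and dispersed into single cells, which were treated outside the animal for 24 h with 10 μM of MOTS-c (replicates 2 and 3) or of the scrambled peptide (replicates 1 and 2), with 2 arrays in each group. The labels do not say which animal each array stands for, so the spread between arrays may be partly technical. The cells were not sorted, and fewer cells of a type cannot be told apart from less RNA per cell.

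De novo synthesis builds the purine ring stepwise on phosphoribosyl pyrophosphate (PRPP) until inosine monophosphate (IMP) is formed, and IMP is then turned into AMP or GMP. The last steps to IMP pass through AICAR, a metabolite that activates AMPK when it accumulates, and the peptide has been linked to AICAR in muscle cells. In islets, purine nucleotides carry the ATP signal of glucose metabolism and the GTP used in secretion, and much of the nucleotide pool can also be remade by salvage of free bases.

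Of gene spots, 61.6% to 65.0% were well above their local background on each array, the scanner software's own flag. Over all probes, the median absolute log2 difference between arrays was 0.16 within scrambled and 0.19 within MOTS-c, and between groups it ran from 0.16 to 0.24. Ins1, Ins2, Iapp, Gcg and Sst, the hormones and islet peptide that define the tissue, were well above background on all 4 arrays. Of the markers of other cells, 3 of 7 acinar, 2 of 4 ductal, 2 of 4 endothelial, 2 of 4 macrophage and 1 of 4 mesenchymal genes passed the filter. Csf1r of macrophages (68.1 to 127 times background), Cela1 of acinar cells (50.3 to 92.1) and Plvap of endothelial cells (38.1 to 58.3) were the brightest of them, while Cpa1, Krt19, Cdh5, Ptprc and Col1a1 did not pass. The beta cell glucose transporter Slc2a2 was dim on every array, at most 2.30 times its local background, and was lower with MOTS-c by a log2 difference of -1.33, with a reading on MOTS-c replicate 2 that was not well above background. Cela1 (-0.76) and Pdgfra (-1.05) were also lower and the alpha cell factor Irx2 (0.68) higher at an unadjusted limma p under 0.05, none of them at an adjusted p under 0.05. Pdgfra (1.74 to 3.46 times background) and Irx2 (1.66 to 1.89) were dim too. Markers of a cell type did not move together: 3 of 8 beta, 3 of 4 alpha and 1 of 3 acinar genes measured were higher with MOTS-c. Against the genes just named went Mafa of beta cells (0.16), Ttr of alpha cells (-0.27) and Ctrb1 of acinar cells (0.33). The part of these differences in the results below was not tested. The labels give the mice as male, yet none of the 7 probes for Uty, Kdm5d, Eif2s3y and Ddx3y, which lie on the Y chromosome, passed the background flag on any array (0 of 28 readings), whereas the Xist probe passed it on all 4.

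Promoter sequence was looked at because Myc is known to act on several enzymes of the pathway through the letters CACGTG, the E box. In the RefSeq promoter windows of build GRCm38.p6 (250 bases before to 50 after a gene's start), 9 of the 10 genes had an entry, with 10 windows. CACGTG, which reads the same on both strands, was in the windows of Paics, Atic and Impdh2, that is 3 of 10 windows against 7.15% of all 32851. GGGCGG, the GC box, was found on either strand in 10 of 10 windows against 35.7% of all, and the member windows held a median of 26.5 CG pairs against 7 over all windows. CCAAT on either strand was in 4 of 10 windows against 37.4%, and TGACGTCA, the cAMP response element, in 0 of 10 against 1.79%. No motif contains another. The 250 bases before the start of Adss (chr1:177796510-177796759, minus strand) are shown for the gene whose probes disagree, with GC boxes on either strand in capitals, and those of Atic (chr1:71556906-71557155, plus strand) and Impdh2 (chr9:108560186-108560435, plus strand) with the E box in capitals. A match is only a description of the letters.
Adss: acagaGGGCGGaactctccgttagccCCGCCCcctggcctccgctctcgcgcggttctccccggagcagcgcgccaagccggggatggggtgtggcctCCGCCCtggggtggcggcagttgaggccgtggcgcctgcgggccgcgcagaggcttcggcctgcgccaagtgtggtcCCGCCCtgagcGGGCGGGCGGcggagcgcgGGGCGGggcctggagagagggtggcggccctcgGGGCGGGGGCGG
Atic: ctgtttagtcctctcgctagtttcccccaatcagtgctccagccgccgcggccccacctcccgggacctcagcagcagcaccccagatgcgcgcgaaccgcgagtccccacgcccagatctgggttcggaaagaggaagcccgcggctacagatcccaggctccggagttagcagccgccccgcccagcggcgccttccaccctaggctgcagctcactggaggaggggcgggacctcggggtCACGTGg
Impdh2: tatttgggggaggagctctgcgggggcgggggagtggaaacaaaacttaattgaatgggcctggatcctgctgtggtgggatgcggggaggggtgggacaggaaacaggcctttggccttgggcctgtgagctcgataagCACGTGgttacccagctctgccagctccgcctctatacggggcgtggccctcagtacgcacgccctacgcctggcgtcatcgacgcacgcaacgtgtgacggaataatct
The Adss stretch holds 9 GC boxes counted with overlaps. In Atic the E box starts 7 bases before the gene's start, and in Impdh2 it starts 110 bases before it. In the same annotation Ppat and Paics are neighbours on opposite strands, with their starts facing away from each other.

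Each of the 13 RefSeq probes passed the background flag on all 4 arrays, with spots between 18.9 and 2986 times the local background. Their log2 difference, MOTS-c minus scrambled, ran from -0.16 to 0.12 with a median of 0.04, while the median was 0.01 over the 35084 probes measured on every array. It was positive for 8 probes and negative for 5. For 10 of the 13 the difference was smaller than its own standard error, which ran from 0.12 to 0.21. At an adjusted limma p under 0.05, 0 of the 14 probes were called, where 0% of all 35087 probes were called (0 probes). None of the 13 differed by 1.5-fold, and 0 of them had an unadjusted p under 0.05, a level that 7.85% of all probes reached. Together with a change of 1.5-fold that level was reached by 1.10% of all probes as higher and 2.43% as lower. The arrays of the groups did not overlap for 5 of the 13, beside 38.0% of all probes. Since the genes were chosen with this contrast known, nothing is read from these counts.

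**Figure D1:**
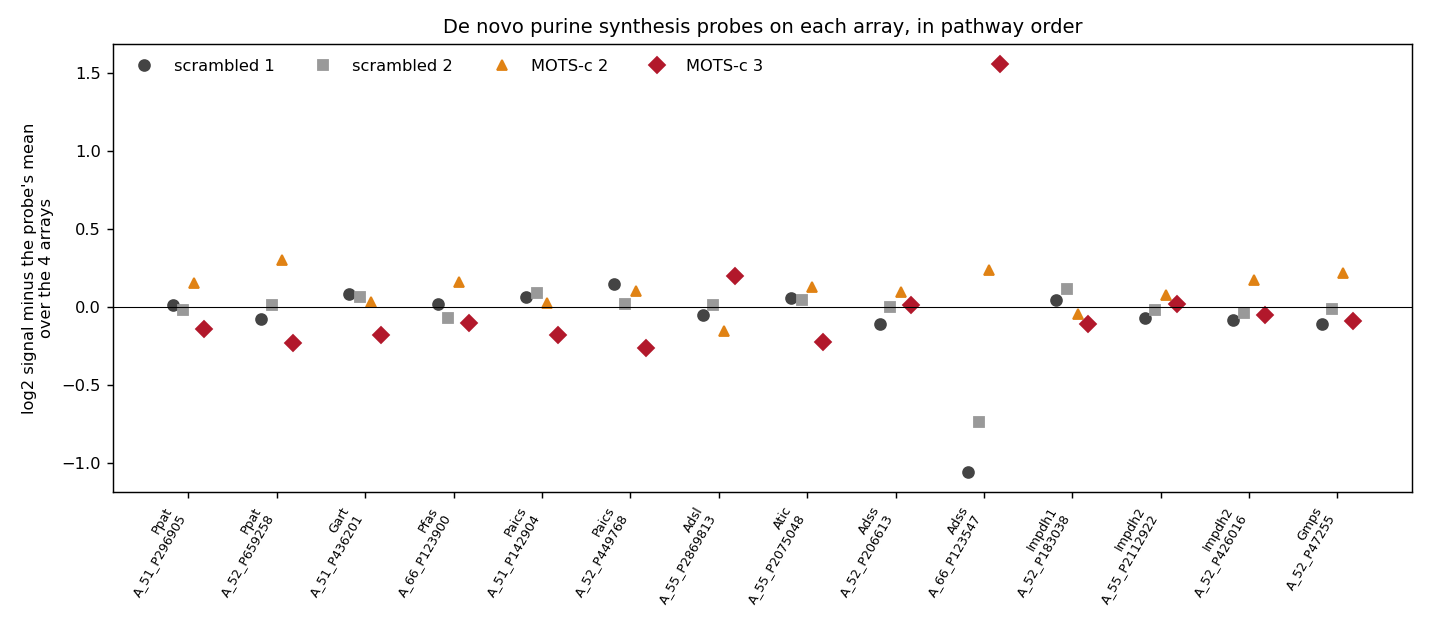
Normalized log2 signal of each probe on each of the 4 arrays, minus the probe's own mean over the arrays (y axis), for the 14 probes in pathway order (x axis). The 13 RefSeq probes stay close to 0 on every array, while the Ensembl transcript probe of Adss spreads over more than 2 log2 units and MOTS-c replicate 3 is its highest point.

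The pathway starts with Ppat, the amidotransferase that commits PRPP to purine synthesis. Its brighter probe, A_51_P296905, gave normalized log2 signals of 10.12 and 10.09 on scrambled replicates 1 and 2 and of 10.26 and 9.97 on MOTS-c replicates 2 and 3, a difference of 0.01 (SE 0.15, n = 2 per group). The MOTS-c arrays thus lay on either side of both scrambled arrays. The dimmer Ppat probe, A_52_P659258, showed the same layout, with 9.52 and 9.61 on scrambled and 9.90 and 9.37 on MOTS-c (difference 0.06, SE 0.21). Both probes are named by the same transcript, NM_172146.

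Gart catalyses several of the early steps, including the first transfer of a formyl group. Its probe A_51_P436201 read 10.65 and 10.64 on scrambled and 10.61 and 10.39 on MOTS-c, a difference of -0.15 (SE 0.14), without overlap of the groups. MOTS-c replicate 2 was within 0.05 of both scrambled arrays, so the difference came mostly from replicate 3. Pfas, which adds an amide nitrogen from glutamine, read 9.79 and 9.71 on scrambled and 9.93 and 9.67 on MOTS-c (difference 0.05, SE 0.15), and its groups overlapped. Paics, which closes in on AICAR by adding carbon dioxide and aspartate, had 2 probes of the transcript NM_025939. The brighter one, A_51_P142904, read 13.62 and 13.65 on scrambled against 13.59 and 13.37 on MOTS-c (difference -0.16, SE 0.14). The dimmer one, A_52_P449768, read 9.46 and 9.32 against 9.41 and 9.04 (difference -0.16, SE 0.17). Only the brighter probe had groups without overlap, and on both the lowest array was MOTS-c replicate 3.

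Adsl splits fumarate off at a step towards AICAR and again on the way to AMP, and so acts directly after Adss. Its probe read 16.48 and 16.54 on scrambled and 16.38 and 16.73 on MOTS-c, a difference of 0.04 (SE 0.17). MOTS-c replicate 2 was here the lowest array and replicate 3 the highest. Atic, the enzyme that uses AICAR and closes the ring to IMP, read 10.89 and 10.87 on scrambled and 10.96 and 10.60 on MOTS-c (difference -0.10, SE 0.17). The Atic groups overlapped, with MOTS-c replicate 3 the lowest array.

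From IMP, the GMP branch runs through the IMP dehydrogenases, the rate-limiting step to guanine nucleotides, and Gmps. Impdh1 read 13.22 and 13.29 on scrambled and 13.13 and 13.07 on MOTS-c (difference -0.16, SE 0.12), with both MOTS-c arrays below both scrambled ones. Its paralog Impdh2, measured by 2 probes of NM_011830, had the opposite sign. Probe A_55_P2112922 read 14.04 and 14.08 on scrambled and 14.18 and 14.12 on MOTS-c (difference 0.09, SE 0.12), without overlap. Probe A_52_P426016 read 12.27 and 12.32 against 12.53 and 12.30 (difference 0.12, SE 0.14), and here the groups overlapped. Gmps, which makes GMP from XMP, read 10.68 and 10.78 on scrambled and 11.01 and 10.70 on MOTS-c (difference 0.12, SE 0.16), so that only MOTS-c replicate 2 stood above the scrambled arrays.

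Adss, the adenylosuccinate synthetase that joins aspartate to IMP at the first step towards AMP, gave different readings on its 2 probes. The RefSeq probe A_52_P206613 (NM_007422) read 11.25 and 11.36 on scrambled and 11.46 and 11.37 on MOTS-c, a difference of 0.11 (SE 0.13), with spots 93.2 to 112 times their background. The groups did not overlap, but scrambled replicate 2 and MOTS-c replicate 3 differed by about 0.01. The Ensembl transcript probe A_66_P123547 read 4.71 and 5.03 on scrambled and 6.00 and 7.32 on MOTS-c, a log2 difference of 1.79 (SE 0.46), or 3.47-fold. Both MOTS-c arrays were above both scrambled arrays, and the MOTS-c arrays also differed most from each other, with an SD of 0.93 against 0.23 for scrambled. Of the 35087 probes tested, this probe was number 22 from the highest difference, in the contrast used to choose it.

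The Ensembl transcript probe was dim. Before normalization its background-corrected signal was 26.0 and 30.8 on scrambled and 61.3 and 172 on MOTS-c, and its spots were 1.89, 2.03, 2.88 and 5.81 times the local background in the same order of arrays, well above background on each by the scanner's flag. Among the 3862 probes within 0.5 log2 units of its mean brightness, 8.21% differed by 1.5-fold or more. Of them 6, the probe itself included, had a difference at least as large in size. That difference was known when Adss was chosen, so its place among them is a description only. Around the brightness of the RefSeq probe, 1.39% of 2871 probes differed by 1.5-fold. With the normexp background correction in place of the deposited one, the difference of the Ensembl transcript probe was 0.75. Without MOTS-c replicate 3 it was 1.14 and without MOTS-c replicate 2 it was 2.44. The transcript's sequence and exons, and the 60-base probe's own sequence, were not analysed here, so what part of Adss the probe reads is not given.

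**Figure D2:**
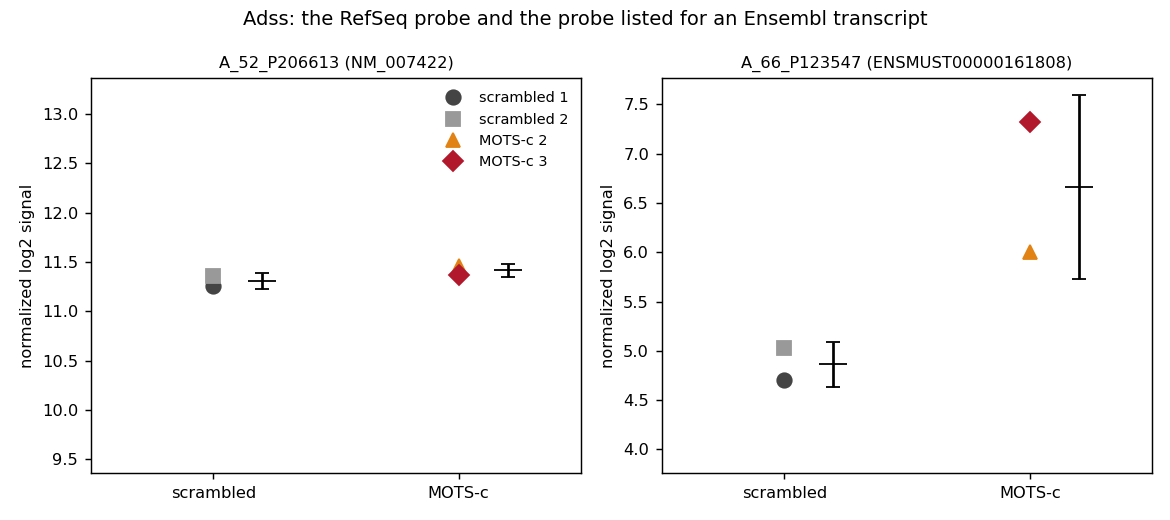
Normalized log2 signal (y axis) of the 2 Adss probes on each array, scrambled and MOTS-c (x axis), with black bars for the mean and SD of 2 arrays; both panels span 4 log2 units. The RefSeq probe lies between 11.25 and 11.46 on all arrays, while the Ensembl transcript probe runs from 4.71 on scrambled replicate 1 to 7.32 on MOTS-c replicate 3.

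Genes with several probes were also compared probe by probe. For Ppat, Paics and Impdh2, the differences read by the 2 probes lay within 0.05, 0.01 and 0.03 log2 units of each other, against a median of 0.11 between the brightest and dimmest probe over 5754 genes with several probes. For Adss the gap was 1.69, which holds the same difference that was known when Adss was chosen and is a description only. Adss is the only one of these 4 genes whose probes are named by different transcripts, but only for Adss was a probe without a RefSeq name added. Probes of the other genes were found by RefSeq accession alone. The median of 0.11 is therefore not one of pairs like the Adss pair.

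The profiles of the Adss probes had different nearest neighbours. Each profile holds the MOTS-c minus scrambled difference that was known when Adss was chosen, so the neighbours are a description only. By the distance between centred 4-array profiles, the Ensembl transcript probe lay nearest to Gm5088, Cd36 (a fatty acid transporter), Tdpoz8, Zfp712 and Nodal (a developmental signal), at 0.53 to 0.91 log2 units. Their own log2 differences were between 0.98 and 1.62. The RefSeq probe lay nearest to Znhit6, Sipa1, Eno1b, Dus2 and Gpn2, at 0.006 to 0.015, with log2 differences between 0.10 and 0.12. These profiles rest on 4 arrays, and 99 and 119 of the 21814 candidate probes were correlated above 0.99 with the Ensembl transcript probe and the RefSeq probe respectively.

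The spread between arrays of a group is a measure the choice did not use. Scrambled replicates 1 and 2 differed by a median of 0.06 log2 units over the 13 RefSeq probes and by at most 0.13, and the median over all probes was 0.16. MOTS-c replicates 2 and 3 differed by a median of 0.26 over the 13 and by up to 0.53 (the dimmer Ppat probe), and the median over all probes was 0.19. That last median varied with brightness, at 0.14 around the RefSeq probe of Adss and 0.26 around its dim Ensembl transcript probe. For neither group were the 13 set beside probes of like brightness. No pair of arrays was farther apart on the 13 probes than the MOTS-c pair, since a scrambled and a MOTS-c array differed by medians of 0.14 to 0.19. For 10 of the 13 probes the MOTS-c arrays differed from each other by more than the groups did.

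The direction within MOTS-c was shared by most enzymes. Of the 13 probes, 12 were lower on replicate 3 than on replicate 2, where 56.5% of all probes were, and Adsl was the exception at 0.35 higher. Of the 41 genes outside the pathway described below, 29 were lower on replicate 3, and of 7 genes of dividing cells 1 was. The probes are not independent of each other, and 3 genes are counted by 2 probes each. Mki67, one of the dividing cell genes, read 14.49 and 14.15 on scrambled and 13.54 and 14.31 on MOTS-c (difference -0.40). Top2a, of opposite sign, read 14.08 and 13.85 on scrambled and 14.09 and 14.67 on MOTS-c (difference 0.42). The dividing cell genes were bright and all 7 passed the filter, with 3 higher and 4 lower on MOTS-c. Their summed log2 level was 100.4 and 101.1 on scrambled and between 99.7 and 101.3 on MOTS-c, with a median difference of -0.06 and 0 of 7 at an unadjusted limma p under 0.05. Their part in the purine enzyme levels was not tested.

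**Figure D3:**
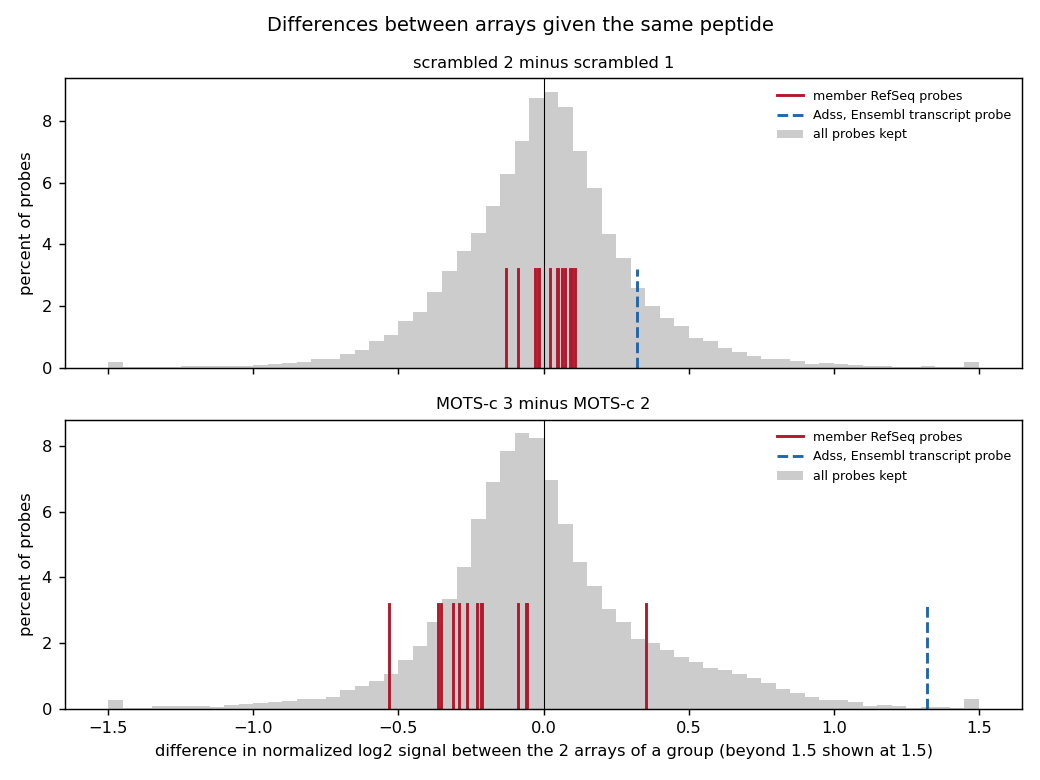
Difference in normalized log2 signal between the arrays of a group (x axis), with the percent of all kept probes in each bin as grey bars (y axis) and the purine enzyme probes as vertical lines whose height carries no value. The 13 RefSeq probes crowd within 0.13 of 0 for scrambled, and 12 of them lie below 0 for MOTS-c replicate 3 minus replicate 2, while the Ensembl transcript probe of Adss lies at 1.32.

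Outside the pathway itself, 46 genes were followed, from other purine metabolism, formyl group supply and pyrimidine synthesis, with some transcription factors. Of these, 41 had a probe that passed the filter. By limma with adjustment over all probes, 0 of the 41 passed an adjusted p of 0.05 and the smallest was 0.553. At an unadjusted p under 0.05 there were 4, all lower with MOTS-c, beside 7.85% of all probes in either direction. Lower by 1.5-fold as well were 2 of these, beside 2.43% of all probes as lower and 1.10% as higher. The median difference of the 41 was -0.07. Of the 4, 3 were among the 10 measured interconversion genes, and so were both at 1.5-fold, but the lists were not compared with each other by a test.

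The genes at the unadjusted level were Ak1, Ampd3, Gmpr and Shmt2. Ak1, the adenylate kinase that balances AMP, ADP and ATP, read 13.60 and 13.72 on scrambled and 13.20 and 12.66 on MOTS-c (difference -0.73, SE 0.22, limma adjusted p = 0.553). Ampd3, which deaminates AMP back to IMP and so runs against the Adss branch, read 5.67 and 5.65 on scrambled and 5.12 and 4.31 on MOTS-c (difference -0.94, SE 0.29, limma adjusted p = 0.563), with spots only 1.67 to 2.68 times background. In both, every MOTS-c array was below every scrambled array and replicate 3 was lowest. Gmpr, which returns GMP to IMP, read 10.37 and 10.25 on scrambled and 10.04 and 9.71 on MOTS-c (difference -0.44, limma adjusted p = 0.629). Shmt2, the mitochondrial serine hydroxymethyltransferase that feeds carbon into folate, read 12.64 and 12.53 on scrambled and 12.28 and 12.13 on MOTS-c (difference -0.38, limma adjusted p = 0.600). The difference of Ampd3 was -0.54 and that of Ak1 was -0.47 without MOTS-c replicate 3, and then 0 of the genes met both levels. With the normexp background correction Ampd3 was at -0.31, under 1.5-fold. Without the filter on dim probes, Ampd3 (-0.96) and Ak1 (-0.73) each lost the unadjusted level. The 1 list gene that met both levels without that filter was therefore a different gene, which was not identified. Gmpr and Shmt2 each lost the unadjusted level in 5 of 10 alternatives, the 75th percentile scaling among them (-0.43 and -0.39). The count was also 0 without either scrambled replicate and 4 without MOTS-c replicate 2.

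PRPP supply came before the pathway with 5 of 5 genes measured and 0 at an unadjusted p under 0.05. The synthetases Prps1, Prps2 and Prps1l3 had log2 differences of -0.15, -0.08 and 0.11, and their associated proteins Prpsap1 and Prpsap2 of 0.08 and -0.13. Adssl1, the muscle form of the synthetase that Adss encodes, read 12.20 and 12.15 on scrambled and 12.06 and 11.95 on MOTS-c (difference -0.17, SE 0.12, limma adjusted p = 0.791), without overlap of the groups and opposite in sign to both Adss probes.

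Salvage, which remakes nucleotides from bases and nucleosides, had 5 of 5 genes measured and 0 at the unadjusted level, with Adk (adenosine kinase) at 0.19 and Dguok at 0.12 the largest in size. Of 11 genes that convert purine nucleotides into each other, 10 were measured and Ak1, Ampd3 and Gmpr were lower at the unadjusted level. Guk1, the guanylate kinase, had a difference of 0.33 (SE 0.13) and Ak4, which was dim, one of 0.37 (SE 0.16), neither at an unadjusted p under 0.05. Of 10 breakdown genes, 6 were measured and 0 reached that level, with Nt5c (a nucleotidase) at 0.22 and Pnp (purine nucleoside phosphorylase) at 0.16. Ampd1, Nt5c1a, Nt5e, Gda and Uox did not pass the filter, with spots at most 1.38 times background.

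The supply of formyl groups for Gart and Atic had 5 of 5 genes measured. Beside Shmt2, the cytosolic Shmt1 had a difference of -0.27 (SE 0.19), while Mthfd1, which makes formyl-tetrahydrofolate, had 0.16, Mthfd1l -0.14 and Mthfd2 -0.08. In pyrimidine synthesis, taken for comparison, 5 of 5 genes were measured and 0 were at the unadjusted level, with a median of -0.03, Ctps2 at -0.21 and Umps at -0.14. Among transcription factors known to act on purine enzyme genes, 4 of 4 were measured and 0 reached the unadjusted level. Mycn read 10.29 and 10.37 on scrambled and 10.12 and 9.63 on MOTS-c (difference -0.46, SE 0.20, limma adjusted p = 0.685). Myc read 7.88 and 7.54 on scrambled and 8.06 and 8.10 on MOTS-c (difference 0.36, SE 0.16, limma adjusted p = 0.688). The groups overlapped for neither, and the signs were opposite.

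**Figure D4:**
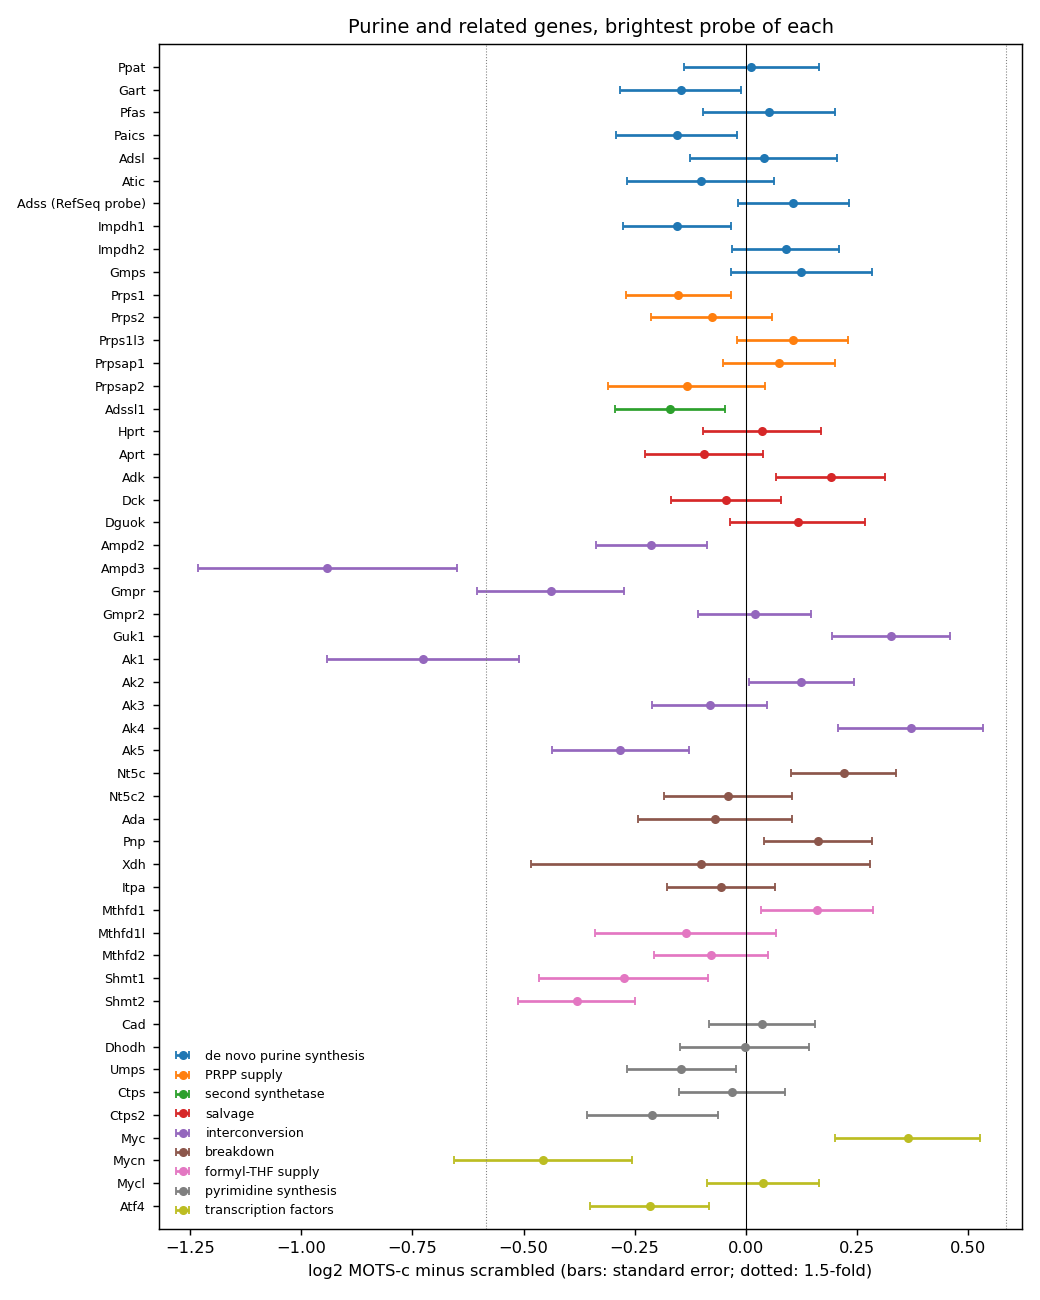
Log2 difference, MOTS-c minus scrambled (x axis), of the brightest probe of each purine or related gene (y axis), with standard errors of the limma fit as bars, lists in color and dotted lines at 1.5-fold. Ak1 and Ampd3 are the genes beyond 1.5-fold, and the purine enzymes lie between -0.16 and 0.12.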

How the data were processed

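The authors labeled amplified RNA with Cy3, hybridized it to Agilent mouse arrays and read the spots with Feature Extraction. The deposited intensity of a spot has its array's background removed, with no normalization across arrays. Another deposited table holds the same values rounded (ratio 0.995 to 1.005). Here, 3671 control spots per array and 96 to 131 outlier spots were left out, intensities were put on the log2 scale, spots of a probe were averaged, and the 35087 of 56605 probes that passed the scanner's background flag on 2 or more of the 4 arrays were quantile normalized. This filter stands in for a Flag A that the methods leave undefined. limma (version 3.58.1, R 4.3.3) compared the groups with Benjamini-Hochberg adjustment over all probes and was tested on simulated data. RefSeq accessions named 32994 probes through the gene table of GRCm38.p6, and since the array design uses another build no coordinates of genes or probes are given, other than those of the RefSeq promoter windows. Genes outside the pathway were followed through their brightest probe. The genes named are every probe followed for the 10 enzymes, list genes at an unadjusted p under 0.05 and the widest differences of each list. Adss paralogs, PRPP synthetases and the 5 nearest profiles are named as well. Members and lists were chosen with earlier results of these data known, and Y-linked genes and Xist were looked at for the same reason. Some marker genes are not reported here. The number of arrays limits the precision: the fit has 2 residual degrees of freedom, and the smallest two-sided p of an exact permutation test is 0.333. Alternatives were the 75th percentile in place of quantiles, normexp (offset 50, on median spot signals), no filter and a strict filter, the rounded table, each array left out, the methods' t-test, a limma trend, and the mean over a gene's probes.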

Additional observations from a re-analysis of the deposited data

How the results depend on the processing

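The median log2 difference of the 10 purine enzymes (brightest probes) was 0.03 and ran from -0.11 to 0.10 when each array was left out, with -0.11 without MOTS-c replicate 2. Over all alternatives the 13 RefSeq probes kept differences between -0.35 and 0.33, 7 of them changed sign in at least 1 alternative and 6 did not, and the number lower on MOTS-c replicate 3 than on replicate 2 was 12 in each of the 6 alternatives in which it was counted. The difference of the Ensembl transcript probe of Adss (1.79) was 0.75 with normexp and 1.14 to 2.44 with each array left out. Its gap to the RefSeq probe (1.69) was 0.63 with normexp and 0.99 to 2.38 with each array left out, and the cause was not tested. Of the other pathway genes, 2 met an unadjusted p under 0.05 with 1.5-fold, 1 with normexp, 1 without the filter, 0 by the methods' t-test and 0 to 4 with each array left out. Over all probes that count was 1239, and it was 406 with normexp, 612 genes with the mean over probes, 457 by the methods' t-test and 1374 to 3264 with each array left out, highest without MOTS-c replicate 2. The 1 pathway gene counted without the filter was neither Ampd3 nor Ak1, the 2 of the main analysis, and was not identified. At an adjusted p under 0.05 limma called 0 probes, with 2755 at an unadjusted p under 0.05, and the methods' t-test called 1. A fit with an arm of 1 array assumes that it varies like the other group. No paired analysis was possible because the groups share only 1 replicate number. Slide was not used as a block since there is only 1 slide. Signal over background limits the dim probes, among them the Ensembl transcript probe of Adss, Ampd3, Ak4, Xdh and Mycl, the last of which missed the background flag on 1 array.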
